A study of Mus musculus with 18 samples.

Results

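The MHC class II genes of the mouse were followed across 18 cortex libraries, 6 of each of 3 genotypes. The set consists of 7 genes taken by symbol from the 55385 genes of the count table: the chains H2-Aa, H2-Ab1 and H2-Eb1, the invariant chain Cd74, the peptide exchange factors H2-DMa and H2-DMb1, and the transcriptional coactivator Ciita. All 7 were found and all 7 passed the filter on low counts that left 18717 genes for testing. The animals were adult, 17.1 to 18.0 weeks old, with 3 females and 3 males per genotype. Dp16_2xIFNRs animals carry a duplication of a segment of chromosome 16 whose interferon receptor genes have been brought back to 2 copies. Dp16 animals carry the same duplication with its receptor genes at 3 copies. WT animals were C57BL/6J without the duplication. The labels name no transgene, treatment or cell sort, and the strain background of the duplication genotypes is not stated in them, so each library holds RNA of all cell types of the cortex piece and of whatever membranes and vessels came with it.

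MHC class II molecules are pairs of an alpha and a beta chain that display peptides of engulfed proteins to CD4+ T cells. The invariant chain fills the groove of newly made pairs and guides them to endosomes, where cathepsins cut it down to a short remnant. H2-DM, itself a pair of an alpha and a beta chain, exchanges that remnant for peptides. Ciita binds no DNA on its own: it is held at class II promoters by RFX, CREB and NF-Y factors sitting on neighbouring sequence boxes named X and Y. Interferon gamma, acting through its receptor and the kinases Jak1 and Jak2, is the best known inducer of Ciita outside B cells and dendritic cells. In the healthy brain class II is low in microglia and is found mainly on macrophages of the meninges and vessels and on a few dendritic cells.

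None of the 7 genes lies in the duplicated segment, taken here as chr16:75540514-97962622 of GRCm38, so all have the normal copy number in every genotype. On chromosome 17 lie H2-DMa at chr17:34119541-34139101, H2-DMb1 at chr17:34153072-34160230, H2-Ab1 at chr17:34257689-34269419 and H2-Eb1 at chr17:34305867-34316674, all on the plus strand, and H2-Aa at chr17:34282744-34287823 on the minus strand. Cd74 is at chr18:60803848-60812652, on the plus strand. Ciita is on chromosome 16 but outside the segment, at chr16:10480059-10528418 on the plus strand.

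The annotated span of H2-DMa overlaps 3094 bases of Brd2 on the opposite strand, a gene with 9980 to 13527 counts per library against 447 to 898 for H2-DMa. Likewise Ciita overlaps 25888 bases of Dexi, which had 1497 to 2293 counts per library against 0 to 17 for Ciita. The strand setting of the counting is not given in the sources used here, so any share of such reads in the values of H2-DMa and Ciita was not tested. H2-DMb1 has a near-identical copy, H2-DMb2, and reads matching both could have been counted under either.

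The promoter sequences of the class II genes carry the X and Y boxes through which Ciita acts, and they are shown so that these boxes can be read beside the values. RefSeq windows of build GRCm38.p6, 250 bases before to 50 bases after a gene start, were at hand for 4 of the 7 genes: H2-DMa (with 2 starts), H2-DMb1, H2-Aa and H2-Eb1. They were searched on both strands for a core of the X box, CNNGNAAC, followed 20 to 45 bases on by the Y box core ATTGG; these letters and distances were chosen after the sequences had been seen. The 150 bases before the start are printed 5′ to 3′ on the strand of the gene, with both cores of a matching pair in capitals:
H2-DMb1 (chr17:34153041-34153190, plus strand): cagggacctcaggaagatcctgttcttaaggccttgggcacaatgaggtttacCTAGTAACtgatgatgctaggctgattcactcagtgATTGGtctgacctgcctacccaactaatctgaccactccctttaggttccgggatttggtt
H2-Aa (chr17:34287824-34287973, minus strand): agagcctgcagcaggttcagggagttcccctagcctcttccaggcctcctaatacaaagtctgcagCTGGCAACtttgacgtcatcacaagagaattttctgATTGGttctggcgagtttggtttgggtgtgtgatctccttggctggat
H2-Eb1 (chr17:34305717-34305866, plus strand): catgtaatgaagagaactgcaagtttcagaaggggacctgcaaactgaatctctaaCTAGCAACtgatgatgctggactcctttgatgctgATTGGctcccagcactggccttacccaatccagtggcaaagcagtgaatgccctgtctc
H2-DMa (chr17:34122682-34122831, plus strand, first start): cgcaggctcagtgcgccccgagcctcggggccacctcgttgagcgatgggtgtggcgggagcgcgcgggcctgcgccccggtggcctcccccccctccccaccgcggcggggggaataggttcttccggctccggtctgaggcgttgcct

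The pair was present in H2-DMb1, with the X core beginning 97 bases before the start and the Y core 36 bases further on, in H2-Aa (84 and 36 bases) and in H2-Eb1 (94 and 35 bases). Neither window of H2-DMa held the pair. They end at positions 34122881 and 34125567 of a gene annotated at 34119541 to 34139101. The rest of that span was not searched, so a pair elsewhere in H2-DMa could have been missed. The first H2-DMa window was rich in G and C, at 73% with 29 CpG, and it holds the annotated 5′ end of Brd2 on the opposite strand, at position 34122634. The second was at 39% with 0 CpG, with 50.7% and 3 CpG for H2-Aa and 48% and 0 CpG for H2-Eb1. Of 32851 windows of the same length, 39.1% held the X core, 37.4% the Y core and 1.06% the ordered pair. Among the neighbouring class II genes, H2-Oa, H2-Ob and H2-Eb2 held the pair and H2-DMb2 did not. A match is a description of letters, not a mapped site.

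Per length of transcript the 7 genes spanned a wide range in cortex. In deposited RPKM averaged over 18 libraries, Cd74 was highest at 4.88 ± 1.44 (SD) and H2-DMa next at 4.30 ± 0.540. Then came the chains, H2-Aa at 1.95 ± 0.633, H2-Ab1 at 1.80 ± 0.586 and H2-Eb1 at 1.43 ± 0.390, followed by H2-DMb1 at 1.02 ± 0.155. Ciita was far below the rest at 0.0211 ± 0.00996 RPKM, from 169 counts in all libraries together. Neighbours in this order were not all separated: Cd74 exceeded H2-DMa in 15 of 18 libraries, H2-Aa exceeded H2-Ab1 in 13, H2-Ab1 exceeded H2-Eb1 in 15 and H2-Eb1 exceeded H2-DMb1 in 17. H2-DMa exceeded H2-Aa, and H2-DMb1 exceeded Ciita, in all 18. The 2 subunits of H2-DM were therefore unequal, with 3.22 to 5.56 times as much H2-DMa as H2-DMb1 RNA per length. H2-Ea-ps, the site of the E alpha chain that mice of the C57BL/6 haplotype do not make, was at 0 counts in every library, so H2-Eb1 RNA stood without the RNA of its usual partner.

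Sequencing depth, as the sum of gene counts, was 47912340 to 61150849 in the Dp16_2xIFNRs libraries. It was 46346019 to 67281449 in the Dp16 libraries and 47554526 to 52006799 in the WT libraries. WT replicate 6, from a male, stood apart before any comparison. It held 0.443 of the median of the other WT libraries for a sum of 9 meningeal fibroblast markers, 0.585 for 12 border macrophage markers, 0.718 for 15 microglia markers and 0.947 for 7 neuron markers. For the class II genes the same ratio was 0.219 for H2-Ab1, 0.291 for H2-Eb1, 0.382 for Cd74 and 0.449 for H2-Aa, but 0.891 for H2-DMa and 0.721 for H2-DMb1. Log2 fold changes against WT are therefore given without it as well. Dp16 replicate 3 and WT replicate 5 carried choroid plexus RNA, with 401 and 202 CPM of 9 choroid plexus markers against 6.79 to 44.3 CPM in the other 16 libraries. The labelled tissue was checked on 7 neuron markers, led by Camk2a, Snap25 and Syt1, which summed to 10520 to 12740 CPM in every library.

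Levels across genotypes are given as CPM, the count of a gene scaled to library size with TMM factors, with the lowest, median and highest of 6 libraries. A gene was called where edgeR's quasi-likelihood test, over all 18717 genes and with sex as a covariate, gave a Benjamini-Hochberg adjusted p below 0.05. Log2 fold changes carry 95% intervals. Dp16_2xIFNRs and Dp16 are both set against the same 6 WT libraries, so their results against WT are not independent of each other. In bulk tissue, fewer cells of a type and less RNA per cell cannot be told apart.

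**Figure D1:**
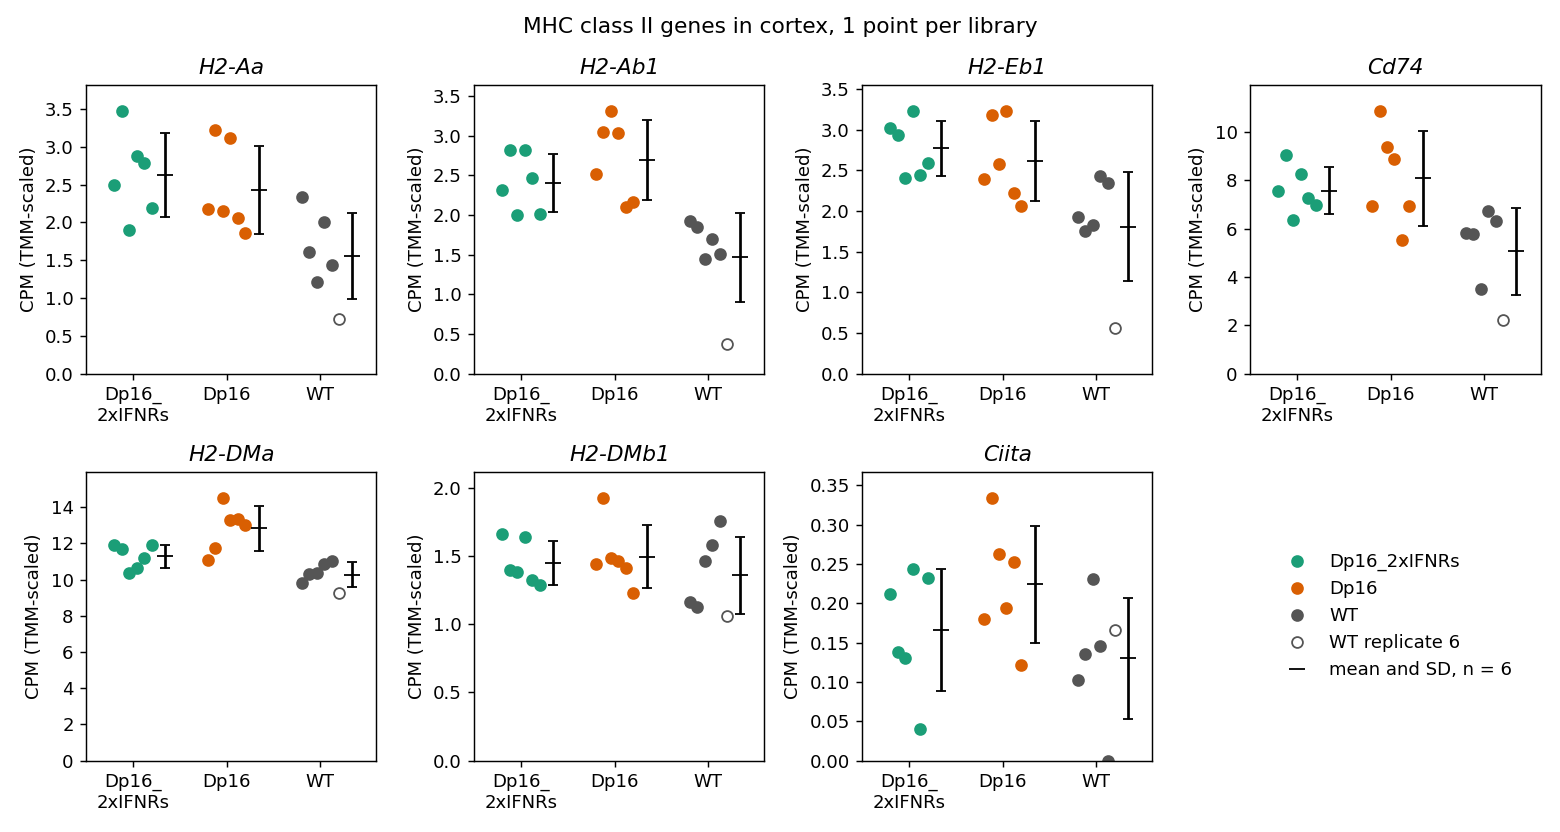
CPM of the 7 MHC class II genes in each library (points) by genotype, with the mean and SD of 6 libraries at the right of each group; WT replicate 6 is drawn open. H2-Ab1 lies above every WT library in all 12 libraries with the duplication, and H2-DMa lies above every WT library in all 6 Dp16 libraries.

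The chains that form the peptide groove were at higher levels in both duplication genotypes than in WT, with fitted folds of 1.46 to 1.85, but no chain was called. H2-Ab1, the A beta chain, had 2.00, 2.39 and 2.82 CPM in Dp16_2xIFNRs, 2.11, 2.78 and 3.31 CPM in Dp16 and 0.373, 1.60 and 1.92 CPM in WT. Every library with the duplication thus lay above every WT library, with or without WT replicate 6. Its log2 fold change was 0.72 (0.24 to 1.19) in Dp16_2xIFNRs against WT (edgeR adjusted p = 0.173) and 0.89 (0.41 to 1.37) in Dp16 against WT (edgeR adjusted p = 0.0931). Of all tested genes, 0.93% lay with every Dp16_2xIFNRs library above every WT library, and 0.721% did so for Dp16; H2-Ab1 and, in Dp16, H2-DMa were the members among them. Without WT replicate 6 the log2 fold change of H2-Ab1 in Dp16 against WT was 0.69 and passed the threshold (edgeR adjusted p = 0.0225), and without WT replicate 1 it was 1.04 (edgeR adjusted p = 0.0456).

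H2-Aa, the A alpha chain that pairs with H2-Ab1, had 1.91, 2.64 and 3.47 CPM in Dp16_2xIFNRs, 1.86, 2.17 and 3.22 CPM in Dp16 and 0.725, 1.53 and 2.33 CPM in WT. Both duplication genotypes overlapped WT, whose highest library was WT replicate 1 at 2.33 CPM, and 4 of 6 Dp16_2xIFNRs and 2 of 6 Dp16 libraries lay above it. The log2 fold change was 0.74 (0.33 to 1.16) in Dp16_2xIFNRs (edgeR adjusted p = 0.0882) and 0.64 (0.22 to 1.05) in Dp16 (edgeR adjusted p = 0.224), each against WT. Same-numbered libraries of Dp16_2xIFNRs and WT, which were also of the same sex, deviated together in all 6 pairs. With the replicate number as a block over all 18 libraries, those of Dp16 included, H2-Aa passed the threshold in that comparison, at 0.78 (edgeR adjusted p = 0.0192). A paired fit of these 2 genotypes alone was not made. Without WT replicate 1 it also passed, at 0.97 in Dp16_2xIFNRs (edgeR adjusted p = 0.00421) and 0.87 in Dp16 (edgeR adjusted p = 0.0125).

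H2-Eb1, the E beta chain, had 2.41, 2.76 and 3.22 CPM in Dp16_2xIFNRs, 2.06, 2.49 and 3.23 CPM in Dp16 and 0.559, 1.88 and 2.43 CPM in WT. In Dp16_2xIFNRs 5 of 6 libraries lay above the highest WT library, and in Dp16 3 of 6 did. The log2 fold change was 0.64 (0.21 to 1.07) in Dp16_2xIFNRs (edgeR adjusted p = 0.178) and 0.54 (0.11 to 0.98) in Dp16 (edgeR adjusted p = 0.397), each against WT. The ratio of H2-Eb1 to H2-Ab1 in RPKM was 0.720 to 0.948 in Dp16_2xIFNRs, 0.565 to 0.773 in Dp16 and 0.688 to 1.13 in WT. These ratios overlap between genotypes and were not tested.

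Cd74, the invariant chain, had 6.35, 7.40 and 9.05 CPM in Dp16_2xIFNRs, 5.52, 7.91 and 10.9 CPM in Dp16 and 2.22, 5.80 and 6.74 CPM in WT. In each duplication genotype 5 of 6 libraries lay above the highest WT library. The log2 fold change was 0.61 (0.23 to 0.99) in Dp16_2xIFNRs (edgeR adjusted p = 0.145) and 0.70 (0.32 to 1.08) in Dp16 (edgeR adjusted p = 0.108), each against WT. Relative to H2-Aa, Cd74 overlapped between genotypes: its RPKM was 2.07 to 2.66 times that of H2-Aa in Dp16_2xIFNRs, 2.13 to 3.47 times in Dp16 and 1.99 to 3.48 times in WT.

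H2-DMa, the alpha chain of the peptide exchange factor, rose in Dp16. It had 10.4, 11.4 and 11.9 CPM in Dp16_2xIFNRs, 11.1, 13.2 and 14.5 CPM in Dp16 and 9.26, 10.35 and 11.1 CPM in WT. The Dp16 and WT libraries did not overlap, at 11.07 CPM for the lowest Dp16 and 11.05 CPM for the highest WT library, while Dp16_2xIFNRs overlapped both. In Dp16 against WT the log2 fold change was 0.32 (0.18 to 0.46), a fold of 1.25, and was called (edgeR adjusted p = 0.0249). In Dp16_2xIFNRs against WT it was 0.14 (-0.01 to 0.28; edgeR adjusted p = 0.472). The call in Dp16 did not stand without any of 8 libraries in turn: the adjusted p by edgeR was 0.0702 without WT replicate 1, 0.0629 without WT replicate 2, 0.0567 without WT replicate 3, 0.0627 without WT replicate 6, 0.0722 without Dp16 replicate 3, 0.0689 without Dp16 replicate 4, 0.0774 without Dp16 replicate 5 and 0.0545 without Dp16 replicate 6. The log2 fold change stayed between 0.28 and 0.36 in these and the other 10 omissions. Dp16 replicate 3, the library with choroid plexus RNA, was the highest for H2-DMa, at 14.5 CPM; the other library with choroid plexus RNA, WT replicate 5, was the highest of its group, at 11.1 CPM. Without both WT replicate 6 and Dp16 replicate 3 the log2 fold change was 0.26 (edgeR adjusted p = 0.138). With the number series of the sample identifiers as a term it was 0.30 (edgeR adjusted p = 0.11), and with only identifiers beginning with 9 it was 0.27 (edgeR adjusted p = 0.749).

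H2-DMb1, the beta chain of the same factor, had 1.29, 1.39 and 1.66 CPM in Dp16_2xIFNRs, 1.23, 1.45 and 1.92 CPM in Dp16 and 1.06, 1.315 and 1.75 CPM in WT. All groups overlapped, with log2 fold changes of 0.10 (-0.20 to 0.40; edgeR adjusted p = 0.892) in Dp16_2xIFNRs and 0.14 (-0.16 to 0.44; edgeR adjusted p = 0.875) in Dp16, each against WT. Its copy H2-DMb2 had 0.356, 0.562 and 0.725 CPM in Dp16_2xIFNRs, 0.464, 0.674 and 0.770 CPM in Dp16 and 0.166, 0.319 and 0.456 CPM in WT. For H2-DMb2 the log2 fold change was 0.77 (0.24 to 1.30; edgeR adjusted p = 0.191) in Dp16_2xIFNRs and 0.97 (0.44 to 1.49; edgeR adjusted p = 0.0992) in Dp16, each against WT. Summed, the copies reached 1.73, 1.97 and 2.39 CPM in Dp16_2xIFNRs, 1.70, 2.17 and 2.57 CPM in Dp16 and 1.22, 1.63 and 2.21 CPM in WT, and all groups overlapped.

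Ciita, the coactivator of the class II promoters, was near the limit of detection. It had 0.0408, 0.175 and 0.243 CPM in Dp16_2xIFNRs, 0.121, 0.223 and 0.334 CPM in Dp16 and 0.00, 0.141 and 0.231 CPM in WT, corresponding to 2 to 15, 6 to 17 and 0 to 12 counts. All groups overlapped. The log2 fold change was 0.37 (-0.56 to 1.30; edgeR adjusted p = 0.854) in Dp16_2xIFNRs and 0.79 (-0.12 to 1.69; edgeR adjusted p = 0.65) in Dp16, each against WT. A difference of the size seen in the chains was thus not detectable for Ciita at this depth.

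Counted over the set, 0 of 7 genes were called in Dp16_2xIFNRs against WT, where 1.05% of all tested genes were called, 0.737% as higher. At an unadjusted p below 0.05 the edgeR count was 4 of 7, against 11.5% of all genes; DESeq2 called 2 of 7 and 405 of 18702 genes, limma-voom 1 and 200 of 18717, and limma on RPKM 1 and 200 of 18717. In Dp16 against WT 1 of 7 was called, where 0.748% of all tested genes were called, 0.636% as higher. At an unadjusted p below 0.05 the edgeR count there was 5 of 7, against 8.84% of all genes, and DESeq2 called 3 of 7 and 250 of 18702 genes. All 7 log2 fold changes were above 0 in both comparisons, as were 50.2% and 49.3% of those of all tested genes. The median over the 7 was 0.61 in Dp16_2xIFNRs and 0.64 in Dp16, with 0.00 over all tested genes in each. Leaving out 1 library changed these counts. In Dp16 against WT 0 of 7 were called without WT replicate 2, WT replicate 3 or Dp16 replicate 3, 4, 5 or 6, and 2 without WT replicate 1 (H2-Aa and H2-Ab1); in Dp16_2xIFNRs against WT 1 was called without WT replicate 1 (H2-Aa). With the replicate number as a block, edgeR called 1 of 7 in Dp16_2xIFNRs against WT and 304 of 18717 genes, against 196 without the block.

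Without WT replicate 6 the log2 fold changes of 6 members against WT were smaller. For H2-Aa it was 0.61 in Dp16_2xIFNRs (edgeR adjusted p = 0.1) and 0.51 in Dp16 (0.326), and for H2-Eb1 0.45 (0.111) and 0.36 (0.361). For Cd74 it was 0.47 in Dp16_2xIFNRs (0.131) and 0.56 in Dp16 (0.108), and for H2-Ab1 0.52 in Dp16_2xIFNRs (0.0811) and 0.69 in Dp16, where H2-Ab1 was now called (edgeR adjusted p = 0.0225). H2-DMa, at 0.11 in Dp16_2xIFNRs (0.588) and 0.29 in Dp16 (0.0627), was called in neither. H2-DMb1 stood at 0.04 in Dp16_2xIFNRs (0.952) and 0.09 in Dp16 (0.928), and its median, in both genotypes above the median over all 6 WT libraries, was 0.949 times that of the 5 other WT libraries in Dp16_2xIFNRs and 0.990 times in Dp16. Ciita alone was larger, at 0.41 in Dp16_2xIFNRs (0.805) and 0.83 in Dp16 (0.657).

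Taking both duplication genotypes together against WT, 12 libraries against 6, placed 4 members just beyond the threshold. The log2 fold change was 0.66 (0.31 to 1.00; edgeR adjusted p = 0.0518) for Cd74, 0.80 (0.38 to 1.23; edgeR adjusted p = 0.0564) for H2-Ab1, 0.69 (0.32 to 1.06; edgeR adjusted p = 0.0565) for H2-Aa and 0.23 (0.10 to 0.35; edgeR adjusted p = 0.0645) for H2-DMa. H2-Eb1 stood at 0.59 (0.21 to 0.97; edgeR adjusted p = 0.132), while H2-DMb1 at 0.12 and Ciita at 0.58 had intervals that spanned 0. All 7 values were above 0, as were 49.6% of those of all tested genes. No member was called by edgeR, with 1.44% of all tested genes called, 0.967% as higher and 0.47% as lower, but 5 of 7 had an unadjusted p below 0.05, as did 12.4% of all genes. DESeq2 called 5 of 7 and 522 of 18702 genes, limma-voom 3 and 258 of 18717, and limma on RPKM 3 and 302 of 18717. Leaving out 1 library brought edgeR calls of 3 members without WT replicate 1 (H2-Aa, H2-Ab1 and Cd74) or Dp16 replicate 6 (H2-Aa, H2-Ab1 and Cd74), and of 1 member without WT replicate 6 (H2-Ab1), Dp16 replicate 1 or 2 (H2-DMa) or Dp16 replicate 5 (Cd74).

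**Figure D2:**
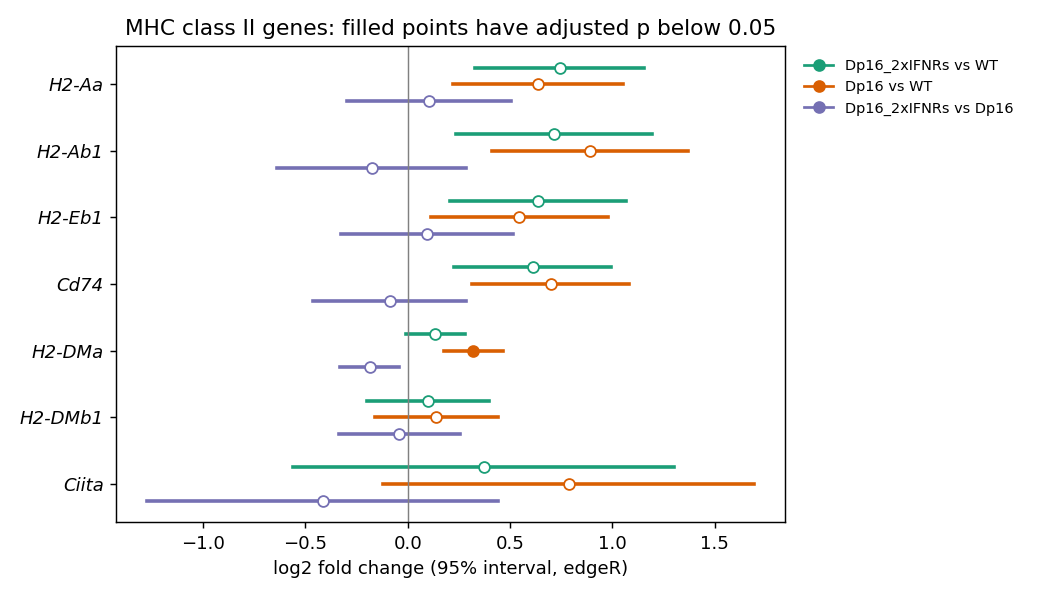
Log2 fold changes (points) with 95% intervals of the 7 genes in Dp16_2xIFNRs against WT, Dp16 against WT and Dp16_2xIFNRs against Dp16; filled points have an edgeR adjusted p below 0.05. The intervals of H2-Aa, H2-Ab1, H2-Eb1 and Cd74 lie above 0 in both comparisons with WT, and only H2-DMa in Dp16 against WT is filled.

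The comparison of Dp16_2xIFNRs with Dp16 asks what the additional copy of the interferon receptor genes changes. No class II gene was called in it by edgeR, DESeq2, limma-voom or limma on RPKM, where edgeR called 0.0214% of all tested genes, 4 genes in all. For H2-DMa, 10.4 to 11.9 CPM in Dp16_2xIFNRs stood against 11.1 to 14.5 CPM in Dp16, a log2 fold change of -0.19 (-0.33 to -0.04) with an unadjusted p of 0.013 and an edgeR adjusted p of 1. This was the only member with an unadjusted p below 0.05, which 2.19% of all genes had. For the chains the intervals spanned 0, at -0.18 (-0.64 to 0.29) for H2-Ab1, 0.10 (-0.30 to 0.51) for H2-Aa and 0.09 (-0.33 to 0.51) for H2-Eb1. Cd74 stood at -0.09 (-0.46 to 0.29), H2-DMb1 at -0.04 (-0.34 to 0.25) and Ciita at -0.42 (-1.27 to 0.44). Of the 7 values 2 were above 0, as were 50.9% of those of all tested genes. With 6 libraries a group, differences as large as the ends of these intervals were not excluded.

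Females had higher levels than males for some members, without a call. Cd74 in females and males was 7.26 to 9.05 and 6.35 to 7.55 CPM in Dp16_2xIFNRs, 6.94 to 10.9 and 5.52 to 9.36 CPM in Dp16, and 5.79 to 6.74 and 2.22 to 5.81 CPM in WT. Across genotypes the log2 fold change of females against males was 0.40 (0.09 to 0.71; edgeR adjusted p = 0.741, unadjusted p = 0.0139). For H2-Aa it was 0.36 (0.03 to 0.70; edgeR adjusted p = 0.741, unadjusted p = 0.0344), and the other 5 members had unadjusted p-values above 0.05. The 3 WT males include WT replicate 6. By edgeR 0.0641% of all tested genes were called between the sexes and 6.64% had an unadjusted p below 0.05. Of the 7 members 6 were above 0 in females, as were 51.6% of all tested genes, and Ciita at -0.40 (-1.13 to 0.34) was not. DESeq2, limma-voom and limma on RPKM called no member. Beside this, 8 of 9 meningeal fibroblast markers and 11 of 12 border macrophage markers had log2 fold changes above 0 in females, with medians of 0.36 and 0.17 against 0.00 over all genes, none of them called; their part in the sex difference was not tested. An interaction test in edgeR of sex with each duplication genotype called 0 of 7 members and 0 of all genes. At an unadjusted p below 0.05 it held 0 of 7 members in either genotype, with 5.87% of all genes for Dp16_2xIFNRs and 3.08% for Dp16, and limma-voom called 0 genes.

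Markers of cells that can carry class II were summed, which does not count the cells. The sum of 12 border macrophage markers, led by Stab1, Mrc1 and F13a1, was 29.2 to 46.5 CPM in Dp16_2xIFNRs, 35.1 to 48.4 CPM in Dp16 and 23.4 to 43.4 CPM in WT. Over all tested genes 50.2% were above WT in Dp16_2xIFNRs and 49.3% in Dp16, with 0.737% and 0.636% called as higher. Among the border macrophage markers 9 of 12 were above WT in Dp16_2xIFNRs with 0 called, and 7 of 12 in Dp16 with 2 called as higher. Those 2, Siglec1 and Folr2, were named after their values were seen; Siglec1 averaged 0.674, 0.864 and 0.340 CPM, and Folr2 0.364, 0.545 and 0.248 CPM, in Dp16_2xIFNRs, Dp16 and WT. The 15 microglia markers summed to 589 to 694 CPM in Dp16_2xIFNRs, 599 to 705 CPM in Dp16 and 503 to 777 CPM in WT, with 2 and 6 of 15 above WT and none called. The 12 markers of activated microglia, led by Apoe, Axl and Lpl, summed to 1544 to 1829 CPM in Dp16_2xIFNRs, 1536 to 1933 CPM in Dp16 and 1335 to 2270 CPM in WT; of 11 tested, 6 lay above WT in Dp16_2xIFNRs and 7 in Dp16. Lyz2 was called as higher in both genotypes and Lgals3 in Dp16, both named after their values were seen. The part of these cells in the class II values was not tested.

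The chains were also set against such sums. H2-Aa, H2-Ab1 and H2-Eb1 together gave 6.32, 7.77 and 9.22 CPM in Dp16_2xIFNRs, 6.08, 7.56 and 9.44 CPM in Dp16 and 1.66, 5.25 and 6.17 CPM in WT, so that undivided Dp16_2xIFNRs lay above all WT libraries and Dp16 overlapped WT. Divided by the microglia markers, the chains were 0.0100 to 0.0152 in Dp16_2xIFNRs and 0.0101 to 0.0145 in Dp16, above all WT libraries at 0.00330 to 0.00883. The divisor itself was 698 to 777 CPM in the 5 WT libraries other than WT replicate 6. It was 589 to 694 CPM in Dp16_2xIFNRs and 599 to 705 CPM in Dp16, and its part in the separation was not tested. How many of all genes separate likewise for such sums and ratios was not counted. Divided by the border macrophage markers, they were 0.136 to 0.234 in Dp16_2xIFNRs and 0.166 to 0.208 in Dp16, against 0.0707 to 0.159 in WT, so that Dp16 and WT did not overlap and Dp16_2xIFNRs and WT did. Divided by the meningeal fibroblast markers, they were 0.0733 to 0.107 in Dp16_2xIFNRs and 0.0846 to 0.123 in Dp16, against 0.0471 to 0.0782 in WT, with the same pattern of overlap. Cd74 divided by the border macrophage markers overlapped WT in both genotypes, at 0.137 to 0.240 in Dp16_2xIFNRs, 0.158 to 0.243 in Dp16 and 0.0945 to 0.175 in WT. H2-DMa overlapped between all genotypes when divided by the border macrophage markers, at 0.224 to 0.409 in Dp16_2xIFNRs, 0.255 to 0.380 in Dp16 and 0.239 to 0.395 in WT. Divided by the microglia markers H2-DMa was 0.0165 to 0.0202 in Dp16_2xIFNRs and 0.0162 to 0.0233 in Dp16, against 0.0140 to 0.0158 in 5 WT libraries and 0.0184 in WT replicate 6.

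**Figure D3:**
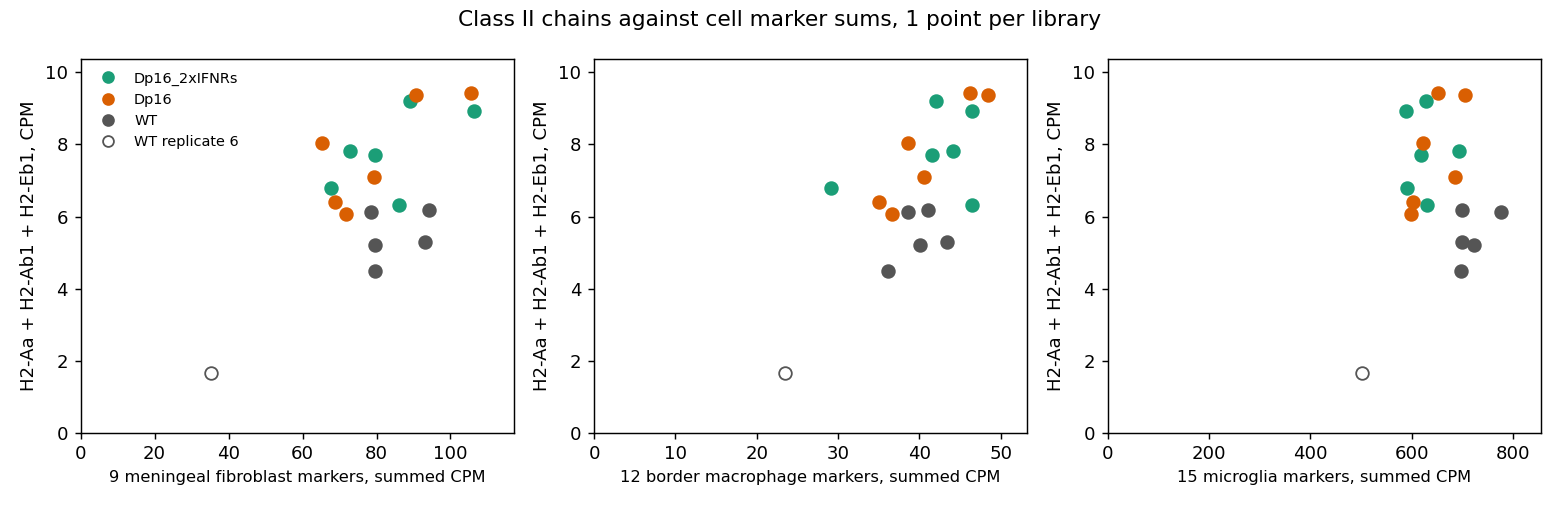
Summed CPM of H2-Aa, H2-Ab1 and H2-Eb1 (vertical axes) against summed CPM of meningeal fibroblast, border macrophage and microglia markers (horizontal axes), 1 point per library coloured by genotype. WT replicate 6, drawn open, is lowest on every axis, at 1.66 CPM of the chains, and the 5 other WT libraries lie among those with the duplication on the horizontal axes of the first 2 panels.

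Of other immune cells, some defining markers had few counts while their lists as a whole did not. The 12 dendritic cell markers, led by Zbtb46, Cd24a and Flt3, summed to 31.6 to 37.8 CPM in Dp16_2xIFNRs, 31.5 to 37.3 CPM in Dp16 and 28.8 to 33.6 CPM in WT. The 10 B cell markers, led by Ighm, Cd22 and Cd79a, summed to 34.3 to 42.6 CPM in Dp16_2xIFNRs, 32.0 to 44.1 CPM in Dp16 and 32.6 to 43.7 CPM in WT. The 9 T cell markers, led by Cd4, Lck and Trac, summed to 5.62 to 22.1 CPM in Dp16_2xIFNRs, 4.71 to 14.8 CPM in Dp16 and 5.15 to 16.3 CPM in WT. No tested marker of these 3 lists was called. The B cell marker Ms4a1 had 14, 11 and 8 counts over the 6 libraries of Dp16_2xIFNRs, Dp16 and WT. Of the dendritic cell markers Xcr1 had 5, 3 and 8 counts and Clec9a 6, 6 and 6 counts. The T cell gene Cd3e had 24, 34 and 23 counts. Markers of monocytes and neutrophils, 9 genes led by S100a9 and S100a8, summed to 1.36 to 2.75 CPM in Dp16_2xIFNRs, 0.945 to 3.65 CPM in Dp16 and 0.580 to 1.14 CPM in WT, and none of the 3 that passed the filter was called. All 3 lay above WT in both genotypes, with medians of 0.87 and 1.07 on the log2 scale. So did 6 of 6 erythroid markers (0.40 and 0.51, none called), 6 of 7 tested dendritic cell and 3 of 6 tested B cell markers. Of 3 tested T cell markers 2 and 1 did, and of all tested genes 50.2% and 49.3%. What part any of these cells had in the chain levels was not tested.

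Of the 7 factors that hold Ciita at class II promoters, 0 were called as higher in either genotype, and Rfx5, a subunit of the RFX complex, fell. Rfx5 had 12.9, 13.5 and 14.9 CPM in Dp16_2xIFNRs, 11.7, 13.7 and 15.4 CPM in Dp16 and 14.5, 17.6 and 19.1 CPM in WT. Its log2 fold change was -0.32 (-0.47 to -0.18; edgeR adjusted p = 0.022) in Dp16_2xIFNRs and -0.32 (-0.46 to -0.17; edgeR adjusted p = 0.0301) in Dp16, each against WT. Taking both genotypes together against WT it was also -0.32 (edgeR adjusted p = 0.00496), with an adjusted p of 0.00213 to 0.0325 on leaving out each library in turn. In the single comparisons the call did not stand in Dp16_2xIFNRs against WT at an edgeR adjusted p of 0.0787 without WT replicate 3, 0.0573 without WT replicate 5, 0.0774 without Dp16_2xIFNRs replicate 2, 0.0579 without Dp16_2xIFNRs replicate 3 and 0.0518 without Dp16_2xIFNRs replicate 4. In Dp16 against WT it did not stand at an edgeR adjusted p of 0.065 without WT replicate 2, 0.112 without WT replicate 3, 0.0791 without WT replicate 5, 0.0711 without WT replicate 6, 0.0828 without Dp16 replicate 1, 0.0735 without Dp16 replicate 2, 0.0682 without Dp16 replicate 3 and 0.0685 without Dp16 replicate 4. By limma on RPKM the adjusted p was 0.098 in Dp16_2xIFNRs and 0.133 in Dp16. In edgeR it was 0.17 and 0.171 with only identifiers beginning with 9, and 0.139 in Dp16 with only the groups compared. In females alone and in males alone Rfx5 was called in neither genotype. Of 37 alternatives 27 kept the call in Dp16_2xIFNRs against WT and 23 in Dp16 against WT. The other 6 factors, Rfxap, Rfxank, Nfya, Nfyb, Nfyc and Creb1, were not called. Over the 7 the median log2 fold change was -0.04 in Dp16_2xIFNRs and -0.09 in Dp16, with 1 of 7 and 0 of 7 above WT. Over all tested genes 50.2% and 49.3% lay above WT in Dp16_2xIFNRs and Dp16. In the same order 0.737% and 0.636% of them were called as higher, and 0.31% and 0.112% as lower.

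Above Ciita, the RNA of the interferon gamma receptor chain Ifngr2 followed the copy number of its gene. Ifngr2, a receptor chain encoded in the duplicated segment, had 37.5, 42.3 and 45.6 CPM in Dp16_2xIFNRs, 56.7, 62.8 and 64.0 CPM in Dp16 and 38.6, 39.6 and 43.1 CPM in WT. It rose in Dp16 against WT by 0.63 on the log2 scale (edgeR adjusted p = 8.33e-08), was at 0.06 in Dp16_2xIFNRs against WT (edgeR adjusted p = 0.698), and fell by 0.56 in Dp16_2xIFNRs against Dp16 (edgeR adjusted p = 5.2e-06). In the same signalling axis Ifngr1, Jak1, Jak2, Irf1, Socs1 and Ptpn2 were not called, and Ifng itself did not exceed 2 counts in any library.

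None of the enzymes that cut the invariant chain and the antigens was called. All 8 genes of this group lay above WT in both genotypes, with a median log2 fold change over the 8 of 0.08 in each. Of all tested genes 50.2% lay above WT in Dp16_2xIFNRs and 49.3% in Dp16. The most abundant, cathepsin B (Ctsb), had 522 to 566 CPM in Dp16_2xIFNRs, 475.9 to 574 CPM in Dp16 and 483 to 574 CPM in WT. Cathepsin D (Ctsd) had 220 to 242, 218 to 248 and 182 to 235 CPM in Dp16_2xIFNRs, Dp16 and WT. Ifi30, a thiol reductase of the lysosome that interferon gamma induces, had 3.14 to 4.20 CPM in Dp16_2xIFNRs, 2.72 to 4.95 CPM in Dp16 and 2.12 to 3.48 CPM in WT, and was named after its values were seen. Its log2 fold change was 0.42 in Dp16_2xIFNRs (edgeR adjusted p = 0.133) and 0.36 in Dp16 (edgeR adjusted p = 0.297), each larger than that of the called H2-DMa.

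Further class II genes of the same locus were H2-Oa and H2-Ob, the chains of a factor that restrains H2-DM in B cells. H2-Ob had 0.339 to 0.795 CPM in Dp16_2xIFNRs, 0.263 to 0.564 CPM in Dp16 and 0.350 to 0.639 CPM in WT, H2-Oa was at a similar level, and neither was called. H2-Eb2 did not exceed 2 counts in any library. Among 8 genes of class II trafficking and turnover none was called, and the most abundant were Mif, the ligand of the invariant chain at the cell surface, at 121 to 132 CPM in Dp16_2xIFNRs, 119 to 132 CPM in Dp16 and 109 to 132 CPM in WT, and March8, a ubiquitin ligase, at 52.0 to 58.5, 51.4 to 60.6 and 49.95 to 58.4 CPM. Of 5 genes listed as candidate repressors of Ciita 4 passed the filter and none was called. For Zbtb16, the most abundant of them, such a role is not established. Zbtb16 had 39.2 to 58.3 CPM in Dp16_2xIFNRs, 38.8 to 62.6 CPM in Dp16 and 34.4 to 65.0 CPM in WT, and Bcl6 23.6 to 28.7, 23.2 to 31.3 and 22.8 to 33.0 CPM. Of 7 co-stimulatory genes 6 passed the filter and none was called, with Cd83 at 11.2 to 12.8 CPM in Dp16_2xIFNRs, 10.04 to 13.4 CPM in Dp16 and 8.51 to 14.1 CPM in WT, and Icosl at 4.55 to 8.52, 4.83 to 9.29 and 3.31 to 5.97 CPM.

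**Figure D4:**
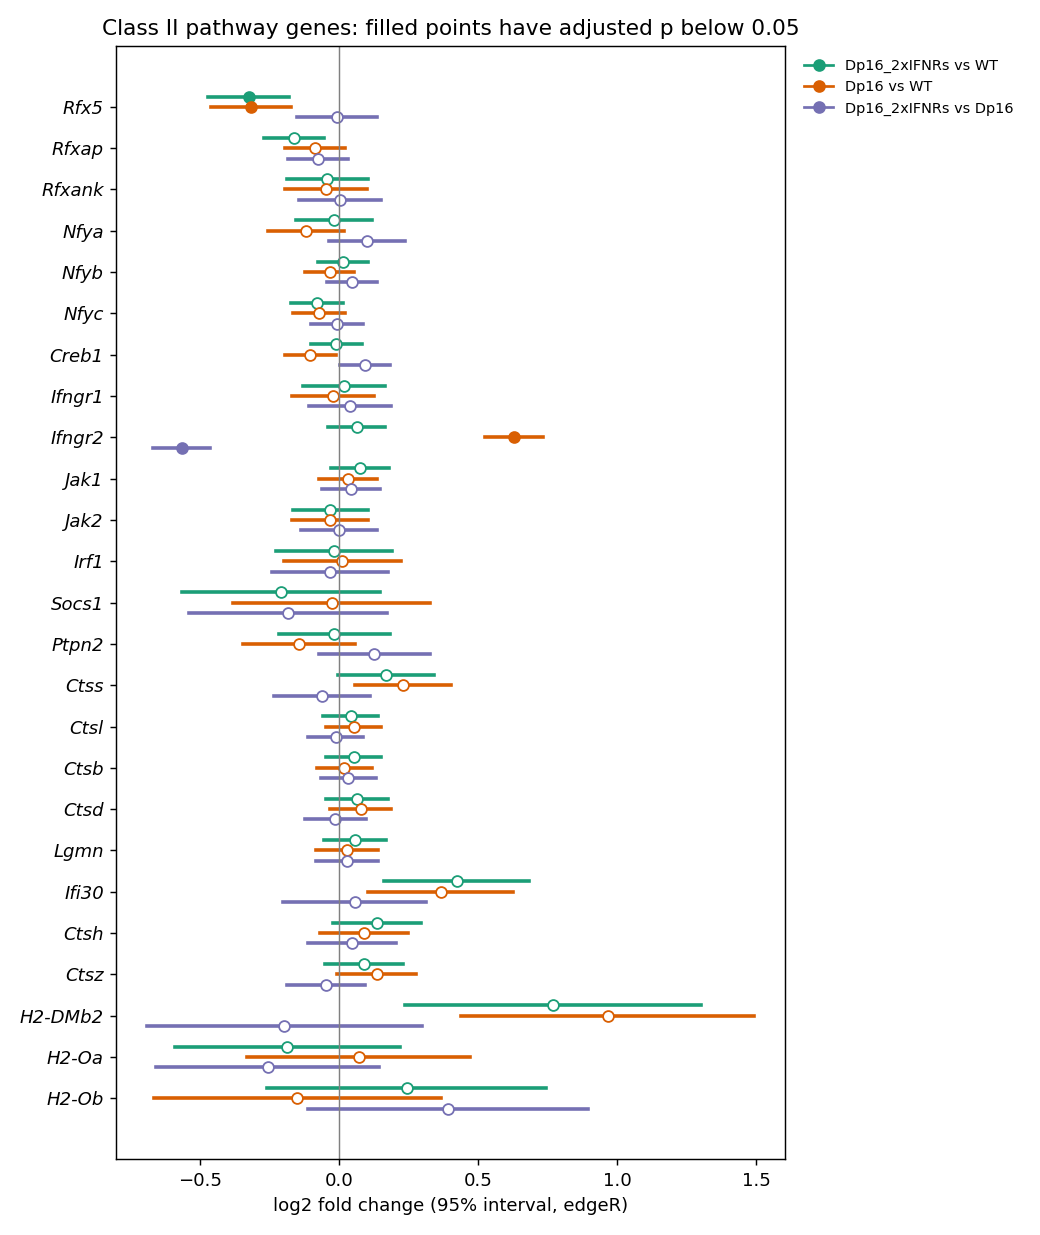
Log2 fold changes (points) with 95% intervals of genes of class II promoter control, interferon gamma signalling, antigen processing and the class II locus, in 3 comparisons; filled points have an edgeR adjusted p below 0.05. Rfx5 is filled below 0 in both comparisons with WT, and Ifngr2 is filled at 0.63 in Dp16 against WT and at -0.56 in Dp16_2xIFNRs against Dp16.

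Across libraries of the same genotype the class II genes fell into separate patterns. After subtracting genotype means of log2 CPM over 18 libraries, H2-Ab1 varied with H2-Eb1 (r = 0.914), Cd74 (r = 0.869) and H2-Aa (r = 0.836), and without WT replicate 6 these values were 0.538, 0.756 and 0.769. H2-DMa varied little with them, at r = 0.17 to 0.396, and at -0.116 to 0.128 without WT replicate 6. Ciita, with its few counts, gave r between -0.213 and -0.048 with the other members. These values describe 18 libraries that share tissue composition and depth, and carry no p.

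The genes most like each pattern were sought among 14556 genes of at least 1 CPM outside the set. For H2-Ab1 they were Wfikkn2 (r = 0.955), Pcolce (0.923), Slc13a4 (0.918), Slc13a3 (0.915) and Rcn3 (0.904), which without WT replicate 6 stood at 0.865, 0.774, 0.629, 0.6 and 0.661. For Cd74 they were Perp (r = 0.87), Bmp7 (0.868), Gm46620 (0.866), Igfbp2 (0.861) and Sema3b (0.852), which without WT replicate 6 stood at 0.783, 0.726, 0.771, 0.695 and 0.753. Those most like H2-DMa were Limd2 (r = 0.865), Cdk18 (0.851), Elfn1 (0.848), Oxtr (0.839) and Col23a1 (0.827), none of them shared with H2-Ab1 or Cd74. For Ciita they were 4933412E12Rik (r = 0.826), Hpse (0.801), Ints12 (0.779), Gng2 (0.754) and Cntnap4 (0.748), with Spearman rank correlations of 0.721, 0.554, 0.624, 0.496 and 0.697. Without WT replicate 6 the r values were 0.8 to 0.844 for the genes most like H2-DMa and 0.737 to 0.832 for those most like Ciita. All these genes were picked as the highest of 14556 over 18 libraries, and how high such a pick would be by chance was not tested.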

How the data were processed

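RNA of cortex was extracted with TRIzol and sequenced from polyA libraries made with a strand-specific kit, per the labels' protocols. Reads were aligned with HISAT2 2.1.0 and counted with HTSeq 0.6.1 on GRCm38, per the submitters' processing notes, which also name FastQC 0.11.5 and SAMtools 1.5; the strand setting is not given in the sources used here. The deposited counts are whole-number reads per gene made by the authors, and their deposited RPKM equals count over library total and gene length for 31735 of 31735 genes (relative tolerance 1e-06).

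Counts were tested in edgeR 4.0.16 (R 4.3.3) by the quasi-likelihood test with robust dispersions, TMM factors, the default filter with a minimum count of 10, and genotype and sex as terms over all 18 libraries (residual df 14). P-values were adjusted by Benjamini-Hochberg over 18717 genes, with a threshold of 0.05. The scripts were tested on simulated data. Alternatives included DESeq2 1.42.0, limma 3.58.1 (voom, and log2(RPKM + 0.1)), other normalizations, filters and covariates, subsets, and leaving out each library. The labels call the libraries separate samples, so p-values measure the spread between these samples; all replicates of a group differed by more than sampling noise.

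Groups share replicate numbers. After subtracting group means but not sex, same-numbered libraries correlated at 0.112 to 0.426 in all 6 pairs of Dp16_2xIFNRs and WT. The numbers were taken as pairs there, and in the other comparisons the correlations did not all exceed 0.1. Where the replicate number was a block, the fit held all genotypes, Dp16 included, and the main test had no such block. All 6 pairs of Dp16_2xIFNRs and WT were also matched in sex. Dp16 replicates 5 and 6 differed in sex from the same-numbered libraries of both other groups. Pairing and sex were not separated in these correlations. Sample identifiers hold a second number, shared across genotypes by 11 libraries, whose meaning the labels do not give; p-values treat these libraries as independent. All 7 class II genes are named, with called genes of the pathway lists or, where none was called, the 2 of highest mean CPM, at most 3 genes per marker list, and the 5 genes most like a member in pattern. The members and lists were chosen with earlier results of these data known. Positions are from GENCODE release 21 for the mouse, while the deposited tables carry release 24; promoter windows are from RefSeq. Some genes of the lists are not reported here.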

Additional observations from a re-analysis of the deposited data

Results flagged for a closer look

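Among 21 groups of 6 libraries (7 genes in 3 genotypes), 3 held a library far from the other 5, by a test that chance passes in about 1 in 20 groups. H2-DMb1 in Dp16 replicate 2 was 1.924 CPM, with the other Dp16 libraries at 1.231 to 1.487 CPM. H2-Ab1 in WT replicate 6 was 0.3728 CPM, with the other WT libraries at 1.446 to 1.921 CPM, and H2-Eb1 in the same library was 0.5591 CPM, with the others at 1.75 to 2.426 CPM. WT replicate 6 was also the lowest WT library for the meningeal fibroblast markers, at 35.2 CPM with the others at 78.46 to 94.26 CPM, and for the border macrophage markers, at 23.44 CPM with the others at 36.13 to 43.4 CPM. Their part in its low class II values was not tested.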

How the results depend on the processing

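Of 1730 single-gene values under 38 alternatives, 1592 kept their direction and their side of the threshold, 53 lost a call, 74 gained one and 11 reversed. In Dp16 against WT, where 1 member was called, the count was 3 by DESeq2, 2 with age added and 2 with the number series of the sample identifiers added (H2-Ab1 and Cd74, without H2-DMa); with only identifiers beginning with 9 it stayed 1, but was Cd74 and not H2-DMa. It was 0 with only the groups compared, 0 in females alone, 0 in males alone and 0 without both WT replicate 6 and Dp16 replicate 3, and 0 to 2 on leaving out each library. In Dp16_2xIFNRs against WT, where 0 were called, the count was 2 by DESeq2, 1 by limma-voom, 1 by limma on RPKM, 1 with the identifier series, 1 with the replicate block and 2 with the block and without WT replicate 6, and 0 to 1 on leaving out each library. For both genotypes against WT, where 0 were called, it was 5 by DESeq2, 3 by limma-voom, 3 by limma on RPKM, 3 with age, 3 with the identifier series, 3 with the replicate block, 2 with only identifiers beginning with 9, 2 with the block and without WT replicate 6, and 1 each with no filter, with 1 CPM in 6 libraries, without robust dispersions and without both named libraries, with 0 to 3 on leaving out each library. Other members' counts, for Dp16_2xIFNRs against Dp16, the sexes and the interaction, were 0 throughout. The causes were not tested. Leaving out WT replicate 6 and another choice together was chosen after seeing the data.

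The reversed log2 fold changes lay near 0, apart from 0.151 for Ciita in females against males with only identifiers beginning with 9. For Dp16_2xIFNRs against WT it was -0.01833 for H2-DMb1 in females alone. For Dp16_2xIFNRs against Dp16 it was -0.01648 for H2-Aa with age added, -0.001955 for H2-Aa and -0.01096 for H2-Eb1 with the identifier series, 0.006015 for Cd74 without both named libraries, -0.106 to 0.03493 for H2-DMb1 on leaving out each library (reversed without Dp16 replicate 2) and -0.1656 to 0.01948 for Cd74 (reversed without Dp16 replicate 3). For H2-DMa in females against males it was -0.005472 with only identifiers beginning with 9, -0.04376 with the block and without WT replicate 6, and -0.004479 to 0.05089 on leaving out each library (reversed without Dp16 replicate 1).

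Calls over all genes moved by over 1.5 times as follows. In Dp16 against WT 140 became 250 by DESeq2, 42 in females, 51 in males and 69 with only identifiers beginning with 9. In Dp16_2xIFNRs against WT 196 became 405, 74, 41 and 109 in the same settings, 304 with the block, 386 with the block and without WT replicate 6, 125 without WT replicate 2 and 121 without Dp16_2xIFNRs replicate 2. In Dp16_2xIFNRs against Dp16 4 became 0 in females and 0 in males. For both genotypes against WT 269 became 522, 79, 68 and 116, 414 with the block and 176 without WT replicate 2. Between the sexes 12 became 21 by DESeq2. Over all 3 genotypes 19 of 36 combinations of a library and another group correlated best at their own number. This is a hint from the data and not from the design, and sex, which most same-numbered libraries share, was not subtracted. The sample identifiers hold a number that 11 libraries share across genotypes, in 7 pairs of equal or near age with correlations of 0.146 to 0.613; the labels do not say what it marks. With that number as a random block in limma-voom, chosen after seeing the data, 1 member was called in Dp16_2xIFNRs against WT (H2-Aa), 1 in Dp16 against WT (H2-DMa) and 3 for both genotypes against WT (H2-Aa, H2-Ab1 and Cd74). With the replicate block in Dp16 against WT, H2-DMa was at an edgeR adjusted p of 0.0524 and H2-Ab1 at 0.0276. Depth limits Ciita most, at 0 to 17 counts per library.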

Other observations

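Class I presentation was followed beside class II. Of 19 genes of class I molecules and peptide loading, 15 lay above WT in Dp16_2xIFNRs, where edgeR called 3 as higher (H2-K1, H2-D1 and B2m), and 13 in Dp16, where it called 2 (H2-K1 and H2-D1). Of all tested genes 50.2% lay above WT in Dp16_2xIFNRs and 49.3% in Dp16, with 0.737% and 0.636% called as higher. The median log2 fold change over the 19 was 0.14 in Dp16_2xIFNRs and 0.09 in Dp16, each against the same WT libraries, with 0.00 over all genes tested. In Dp16_2xIFNRs against Dp16, 14 of 19 were above 0 and none was called, with a median of 0.03. Ctss, the cathepsin that makes the last cuts in the invariant chain, had 72.1 to 81.6 CPM in Dp16_2xIFNRs, 70.1 to 86.1 CPM in Dp16 and 48.2 to 82.9 CPM in WT, and was not called.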
